A study of Rattus norvegicus with 3 samples.

Results

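The integrin and laminin genes of rat motor cortex were examined in 3 untreated male Sprague-Dawley rats. The members are the 37 genes, of 30957 in the tables, whose symbols name an integrin alpha or beta subunit or a laminin alpha, beta or gamma chain. They comprise 17 integrin alpha genes, 8 integrin beta genes, 5 laminin alpha, 3 laminin beta and 3 laminin gamma genes, and Itgbl1, which the same name pattern takes in although it encodes an integrin beta-like secreted protein and not a receptor subunit. All animals (numbers 32, 39 and 68) belong to the normal group, with treatment given as none and a time of 8 weeks that the labels do not describe further. Sprague-Dawley is an outbred stock, and each animal gave 1 library of mRNA from the dissected motor cortex, so that animal, dissection and library cannot be told apart.

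Integrins are receptors made of an alpha and a beta subunit that tie the cell to its matrix and to other cells and signal in both directions across the membrane. Laminins are trimers of an alpha, a beta and a gamma chain that build basement membranes, which in the brain lie around vessels and beneath the pia. Which receptor a cell shows depends on which subunits it makes, since the beta subunit encoded by Itgb1 joins many alpha subunits, that of Itgb2 is used by leukocytes and microglia, and the alpha subunit of Itgav joins several beta subunits.

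Values are FPKM, fragments scaled to the length of the gene and to the size of the library, so levels are given per length. Depth was inferred at 16550241, 15460924 and 17670986 fragments in animals 32, 39 and 68, and 1 FPKM then stands for 16.6 ± 1.11 fragments per kilobase (SD, n = 3). Neuronal markers stood at high level in all libraries, the 12 pan-neuronal genes summing to 4425, 3893 and 3231 FPKM in the same order. Animal 68 stands apart in genes of the choroid plexus, the ventricular epithelium that secretes cerebrospinal fluid, and animal 39 lay between the others. The 11 markers found summed to 61.1, 714 and 8319 FPKM, with medians of 0.155, 3.88 and 52.7 FPKM. Most of the sum was Ttr in animals 39 and 68 (615 and 7264 FPKM) and Enpp2 in animal 32 (49.3 FPKM). Calls that change without an animal are named. In dissected tissue, fewer cells of a type and less RNA per cell cannot be told apart.

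Upstream sequences are shown for 5 members that mark the range of behaviour among the animals described below: Itgb6, Itgb8 and Lama2, which were over 5 times higher in animal 68 than in animal 32, and Lamc1 and Itgav, whose 3 values were close. Each is the 250 bases before the RefSeq gene start, 5′ to 3′ on the gene's strand, and capitals mark motif matches on either strand. The motif searched as GC box was GGGCGG. The CCAAT box was searched by the letters of its name. For the TATA box the letters were TATAAA. The OTX core, bound by homeodomain factors of that family, was TAATCC.
Itgb6 (GRCr8, chr3:65530334-65530583, minus strand): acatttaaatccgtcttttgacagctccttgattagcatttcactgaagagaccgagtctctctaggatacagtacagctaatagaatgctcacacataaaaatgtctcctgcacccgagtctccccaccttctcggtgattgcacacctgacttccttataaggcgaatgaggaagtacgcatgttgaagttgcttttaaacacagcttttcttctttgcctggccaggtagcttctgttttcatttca
Itgb8 (GRCr8, chr6:146351246-146351495, minus strand): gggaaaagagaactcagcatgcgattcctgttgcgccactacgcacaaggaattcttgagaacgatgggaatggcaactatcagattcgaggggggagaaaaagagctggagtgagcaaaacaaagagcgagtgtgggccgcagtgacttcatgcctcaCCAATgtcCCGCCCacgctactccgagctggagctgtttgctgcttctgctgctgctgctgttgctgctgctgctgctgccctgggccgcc
Lama2 (GRCr8, chr1:19491896-19492145, plus strand): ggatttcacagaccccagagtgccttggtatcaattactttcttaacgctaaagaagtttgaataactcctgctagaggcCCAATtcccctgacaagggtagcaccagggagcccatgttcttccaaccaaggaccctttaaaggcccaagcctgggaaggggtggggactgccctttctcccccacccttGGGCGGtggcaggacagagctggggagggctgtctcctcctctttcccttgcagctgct
Lamc1 (GRCr8, chr13:68051987-68052236, minus strand): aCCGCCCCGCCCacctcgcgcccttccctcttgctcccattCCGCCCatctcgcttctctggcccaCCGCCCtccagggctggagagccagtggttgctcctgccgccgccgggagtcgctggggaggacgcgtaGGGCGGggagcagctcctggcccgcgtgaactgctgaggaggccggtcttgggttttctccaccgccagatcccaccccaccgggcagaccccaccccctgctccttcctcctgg
Itgav (GRCr8, chr3:89245132-89245381, plus strand): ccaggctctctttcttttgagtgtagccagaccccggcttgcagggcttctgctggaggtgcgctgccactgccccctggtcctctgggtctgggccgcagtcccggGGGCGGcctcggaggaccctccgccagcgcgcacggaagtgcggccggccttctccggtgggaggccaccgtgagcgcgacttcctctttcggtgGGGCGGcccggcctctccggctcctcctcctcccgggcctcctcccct
An upstream sequence was matched by gene symbol for 29 of the 37 members. The first window listed was used for each member, while the comparison took all windows. The GC box was found 5 times upstream of Lamc1, a pair of those matches overlapping, 2 times upstream of Itgav, 1 time each upstream of Itgb8 and Lama2, and not in the window of Itgb6. Among the 29 matched members 15 held a GC box, against 30.5% of all 33469 RefSeq windows of that length, 5 held a CCAAT box (34.0% of all), 2 held a TATA box (12.9%) and 0 held the OTX core (6.34%). The guanine and cytosine content was 71.2% upstream of Lamc1 and 72.0% upstream of Itgav. It was 56.4% upstream of Itgb8, 55.6% upstream of Lama2 and 43.2% upstream of Itgb6. The median was 51.2% over all windows and 58.0% over the matched members. These matches describe letters only.

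Integrin and laminin genes were expressed at low to moderate level. Their median mean level was 1.60 FPKM, against 5.14 FPKM over the 18929 genes above 0 in at least 1 library, and 25 of the 37 members (67.6%) had a mean of at least 1 FPKM, near the 70.7% of all these genes. Each gene was tested against a level of 1 FPKM (limma, moderated one-sample test on log2(FPKM + 0.1), two-sided, Benjamini-Hochberg adjusted over all 18929 genes, threshold 0.05). Above 1 FPKM by this test were 15 of 37 members, where 64.4% of all genes passed in that direction, and below it were 10 of 37, where 23.2% of all genes passed. The remaining 12 did not pass in either direction. Calls below 1 FPKM depended on the animals, since those for Itga2b, Itgal and Lama1 were not kept without animal 32 or without animal 39, that for Itgae not without any 1 animal, that for Itgb3 not without animal 39 and that for Lamb3 not without animal 39 or without animal 68. The p-values concern the spread between these 3 animals only.

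Itgb1, the common beta subunit (chromosome 19, 61677542 to 61725535 in Rnor_6.0), was the highest member. Its level was 18.9, 23.4 and 35.8 FPKM in animals 32, 39 and 68, an order in which 3 values are given throughout (26.0 ± 8.76 FPKM, SD, n = 3). It passed the limma test against 1 FPKM with a log2 difference of 4.52 (SE 0.19, adjusted p = 1.24e-05). Itgav, the alpha subunit of receptors for vitronectin and for latent TGF-beta (chromosome 3, 71114100 to 71202411), followed among the integrins with 16.4, 14.6 and 14.2 FPKM. Its highest value was 1.15 times its lowest, and animal 68 was the lowest, unlike for Itgb1.

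Among the alpha subunits that bind laminins, Itga6 and Itga3 stood at similar levels and Itga7 lower. Itga6 measured 8.61, 9.10 and 11.7 FPKM, and Itga3 8.97, 8.13 and 8.94 FPKM in animals 32, 39 and 68. The ratio of Itga6 to Itga3 was 0.959, 1.12 and 1.31, on either side of 1. Itga7, best known from muscle, measured 2.94, 4.96 and 6.03 FPKM. The 3 genes together summed to 20.5, 22.2 and 26.7 FPKM, and all 3 passed above 1 FPKM (limma, adjusted p from 3.99e-06 to 0.000659). Itgb4, whose product pairs with that of Itga6 in epithelia and some vessels, was lower at 0.599, 1.28 and 1.995 FPKM and did not pass (adjusted p = 0.615), with the ratio of Itga6 to Itgb4 at 14.4, 7.09 and 5.88. The Itgb4 locus shares 776 bases with Galk1 on the opposite strand (14.2, 14.2 and 12.4 FPKM), whose fragments cannot be told apart from its own without strand.

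Collagen-binding alpha subunits were low. Itga11 measured 1.03, 1.83 and 1.01 FPKM, with animal 39 highest. Itga1 measured 0.449, 1.18 and 1.79 FPKM. Neither passed against 1 FPKM (limma, adjusted p = 0.333 and 0.998), and the interval for the log2 difference of Itga1 ran from -1.05 to 1.05. Itga10 (0.0839, 0.218 and 0.292 FPKM) and Itga2 (listed at 0, 0.0168 and 0.205) passed below 1 FPKM (adjusted p = 0.00284 and 0.00167). At 0.0168 FPKM the value of Itga2 stands for less than 1 fragment per kilobase at this depth. Itga2 and Itga1 lie next to each other on chromosome 2, 30257 bases apart on the same strand, and Pelo, at 7.49, 7.85 and 7.76 FPKM, shares 1888 bases with the Itga1 locus on the same strand, so the level of Itga1 is uncertain.

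Receptors for fibronectin and related ligands were represented mainly by Itgav. Itga8 measured 1.24, 1.71 and 2.29 FPKM and passed above 1 FPKM (limma, adjusted p = 0.0377), a call that was not kept without animal 39 (0.156) or animal 68 (0.0917). Itga9 measured 0.699, 1.27 and 1.89 FPKM and did not pass (adjusted p = 0.506). Itga4 and Itga5, the alpha subunits of the classical receptors for VCAM1 and fibronectin, had means of 0.995 and 0.830 FPKM with all values between 0.715 and 1.25. Neither passed (adjusted p = 0.925 and 0.333). Itgav held 87.9, 82.3 and 79.2% of the summed level of Itgav, Itga5, Itga8 and Itga2b.

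**Figure D1:**
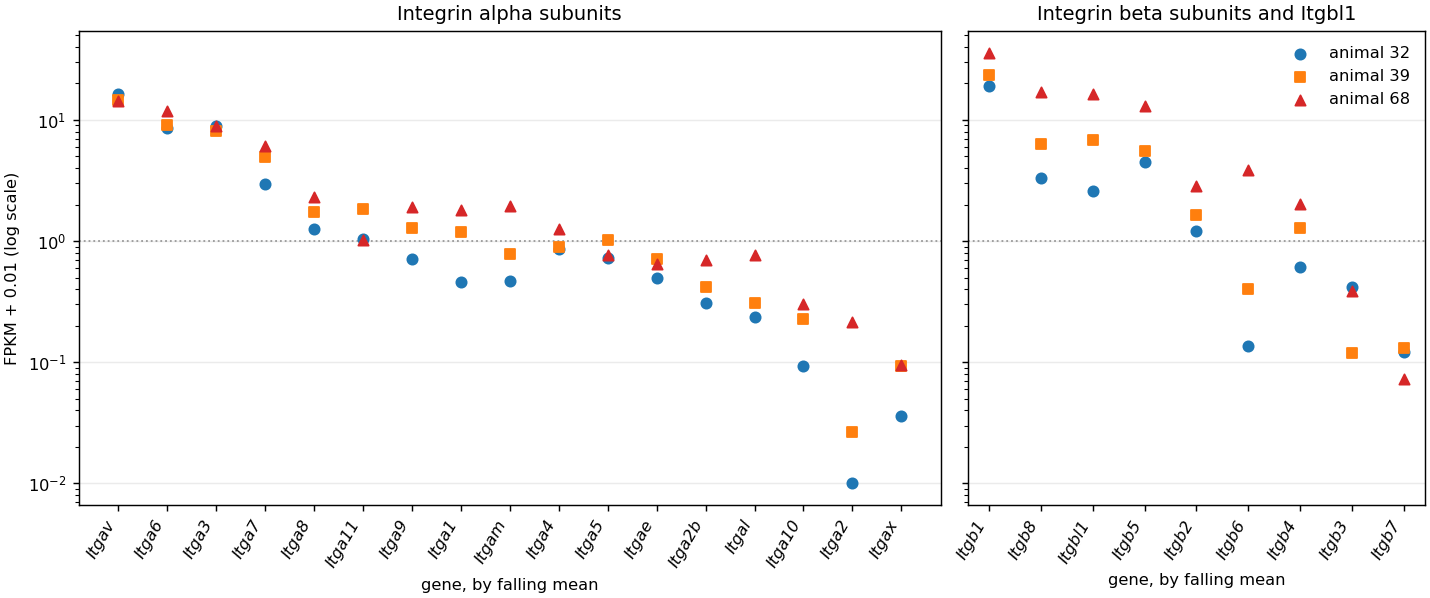
Levels of 17 integrin alpha genes (left) and of 8 integrin beta genes with Itgbl1 (right), as FPKM + 0.01 on a log axis, by falling mean; each symbol is 1 animal and the dotted line marks 1 FPKM. Itgav and Itga3 have close symbols, while Itgb6, Itgb8 and Itgbl1 are spread with animal 68 highest and animal 32 lowest.

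The beta partners of Itgav other than Itgb1 differed more between the animals than Itgav did. Itgb8, whose product with that of Itgav binds latent TGF-beta in the developing and adult brain, measured 3.33, 6.36 and 17.1 FPKM. Itgb5, a vitronectin receptor subunit, measured 4.48, 5.51 and 13.0 FPKM. Both had animal 68 well above the others, and both passed above 1 FPKM (limma, adjusted p = 0.00317 and 0.000874), though Itgb8 did not with its own variance only (0.0701). Itgb6, an epithelial subunit that also binds latent TGF-beta, measured 0.126, 0.393 and 3.88 FPKM. The value in animal 68 was 30.8 times that in animal 32, and without animal 68 Itgb6 passed below 1 FPKM (log2 difference -1.72, limma adjusted p = 0.0105), where with all animals it did not pass (-0.53, 0.574). Itgb3, the subunit shared by platelets and osteoclasts, was low at 0.405, 0.108 and 0.380 FPKM, with animal 39 lowest. Choroid plexus markers moved with Itgb5, Itgb6 and Itgb8 across the animals (sums of 61.1, 714 and 8319 FPKM, with 0 of the 11 at 0 in every library), as did oligodendrocyte markers (3520, 5412 and 9502 FPKM over 12 genes); their part in these differences was not tested.

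Setting each gene against Itgav within the animal gives the order among its partners without the scale of the library. Itgb1 exceeded Itgav by 0.74 on the log2 scale (SE 0.22, n = 3; limma, adjusted p = 0.0207), where 21.9% of all 18928 genes passed as higher than Itgav and 66.9% as lower. The animals' log2 ratios ran from 0.20 in animal 32 to 1.33 in animal 68, so the size of the excess differed widely. The same 3 ratios enter the fit to Itgb1 below with their sign reversed. There the call was not kept without animal 39, without animal 68 or with its own variance only. Itgb5 was lower than Itgav by a log2 ratio of -1.12 (SE 0.34, adjusted p = 0.0230), Itgb6 by -4.31 (SE 0.83, 0.00370) and Itgb3 by -5.35 (SE 0.36, 5.53e-05). Itgb8 did not pass (-1.06, interval from -2.24 to 0.11, adjusted p = 0.0759): it was below Itgav in animals 32 and 39 and above it in animal 68, and it passed as lower without animal 68 (-1.72). The call for Itgb5 was not kept without animal 32 (0.0956) or animal 39 (0.0529), and without a trend in the prior neither Itgb1 (0.0549) nor Itgb5 (0.0510) passed. With each ratio's own variance only, of these 5 genes 1, Itgb3, passed.

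Against Itgb1, all 12 alpha subunits that can pair with it were lower (limma; 74.6% of all genes passed as lower than Itgb1 and 9.93% as higher). Itgav was nearest (log2 ratio -0.74, SE 0.31, adjusted p = 0.0242), then Itga6 (-1.36), Itga3 (-1.52) and Itga7 (-2.47), with Itga2 farthest (-7.37). The ratio for Itgav is the excess of Itgb1 over Itgav given above with its sign reversed, and is not a separate result. The 12 alpha genes together summed to 42.0, 44.9 and 50.4 FPKM, against 18.9, 23.4 and 35.8 FPKM for Itgb1. Thus the sum exceeded Itgb1 in every animal while no gene of it did. All ratios in this fit share the 3 values of Itgb1. The prior of limma carried 313.5 degrees of freedom here, against 3.339 for Itgav and 3.075 for Lamc1, whose fits also share a reference. The reason for this difference was not tested. With so large a prior, nearly the same variance was used for genes of like level. The p-values therefore do not rest on each gene's own spread. With the variances of the gene and of Itgb1 moderated apart, an alternative chosen after the data were seen, all 12 still passed (adjusted p from 4.75e-07 to 0.0129). This alternative adds the variances of gene and reference, and so takes no account of their pairing within the animal. The call for Itgav was not kept without animal 39 (0.328) or animal 68 (0.0577), nor with its own variance only (0.179), and that for Itga6 not without animal 39 (0.0573).

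**Figure D2:**
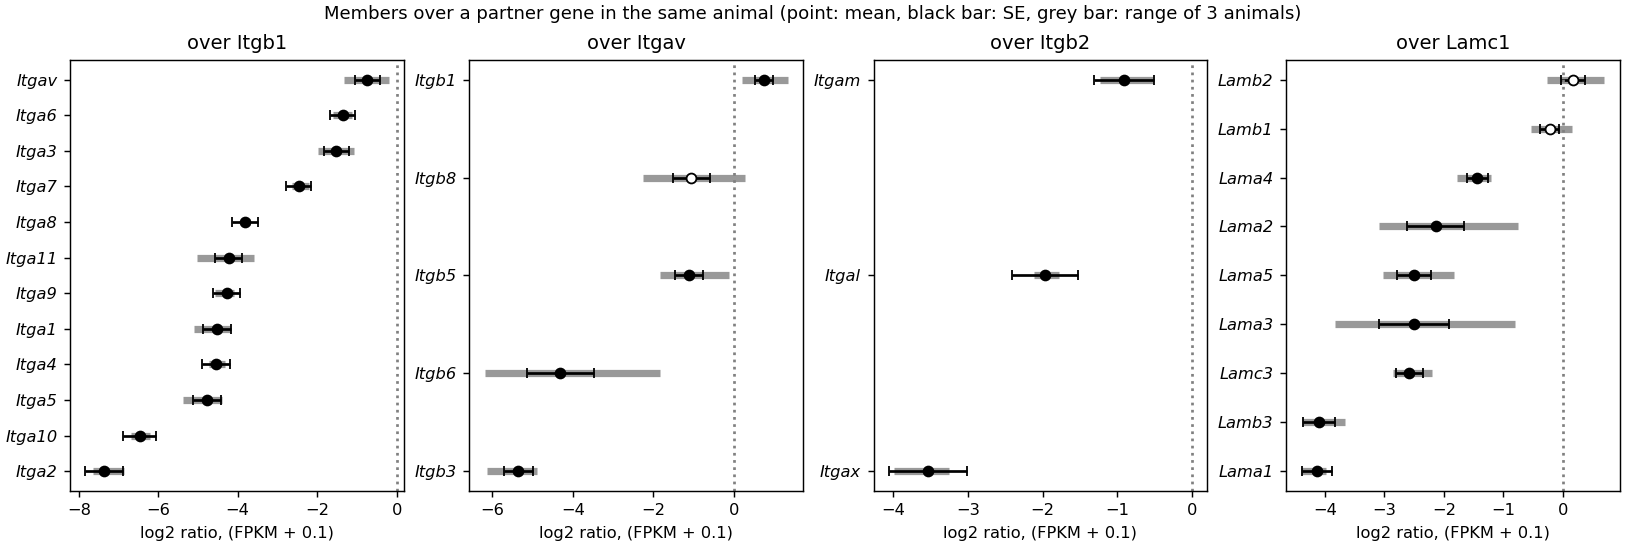
Log2 ratio of (FPKM + 0.1) of each member to the partner gene named above the panel, within the same animal; points are means over 3 animals, filled where limma's adjusted p is under 0.05, black bars are the SE and grey bars the range of the animals. Itgb8 over Itgav, Lamb1 over Lamc1 and Lamb2 over Lamc1 are the open points, and their ranges cross 0.

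The leukocyte subunits were low in every animal. Itgb2, their common beta subunit, measured 1.21, 1.64 and 2.84 FPKM and passed narrowly above 1 FPKM (limma, adjusted p = 0.0491), a call not kept without animal 39 (0.134) or animal 68 (0.117). Itgam, the alpha subunit of complement receptor 3 and a microglial marker (CD11b), measured 0.458, 0.778 and 1.95 FPKM. Itgal, the alpha subunit of LFA-1, measured 0.228, 0.301 and 0.753 FPKM, and Itgax (CD11c) 0.0259, 0.0830 and 0.0848 FPKM. The highest value lay in animal 68 for all 4 genes. The Itgax locus lies wholly within that of Itgam on the same strand (21211 bases), so the split of fragments between them is uncertain. The 12 microglial markers, among them C1qa, Csf1r and C1qb, summed to 93.3, 134 and 185 FPKM in the same order of animals, with none at 0. The 12 markers of other blood leukocytes summed to 5.25, 5.42 and 8.96 FPKM, with Cd3d and Nkg7 listed at 0 in all libraries. Cd4 alone gave 1.90, 2.26 and 6.60 FPKM of the latter sums, and 3 of those 12 markers were highest in animal 68. The part of both lists in the differences was not tested.

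Against Itgb2 within the animal, Itgal and Itgax were lower by log2 ratios of -1.97 and -3.54, and Itgam by -0.91 (limma, adjusted p = 1.03e-05, 2.63e-11 and 0.0271; 29.7% of all genes passed as lower than Itgb2 and 57.1% as higher). The ratio of Itgam to Itgal was 2.01, 2.58 and 2.59. The prior of this fit had infinite degrees of freedom, so its p-values have the limit given for Itgb1. With the variances moderated apart, Itgal (limma, adjusted p = 0.00291) and Itgax (4.06e-05) passed and Itgam did not (0.119). Itgam was also not called without animal 32 (0.174) or animal 39 (0.256). Itgae, whose product binds E-cadherin, measured 0.486, 0.699 and 0.636 FPKM. Its locus overlaps that of Camkk1, a neuronal kinase gene at 81.3, 97.1 and 77.8 FPKM on the same strand, over 23094 bases, so the level of Itgae is uncertain. Itgb7, the beta partner of Itgae and one of those of Itga4, lay between 0.0631 and 0.120 FPKM. Itga2b, the platelet alpha subunit, measured 0.299, 0.409 and 0.684 FPKM, and the 9 platelet markers summed to 1.78, 2.86 and 2.50 FPKM, with Gp5 and Ppbp listed at 0 in all libraries.

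Itgbl1, the integrin beta-like gene, was among the more abundant members at 2.56, 6.87 and 16.3 FPKM. It passed above 1 FPKM (limma, adjusted p = 0.00568), though not with its own variance only (0.0900), and its value in animal 68 was 6.37 times that in animal 32.

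Laminin chains were led by Lamb2, Lamc1 and Lamb1, with means of 11.9, 9.97 and 8.66 FPKM. Lamc1, the gamma chain of most laminins (chromosome 13, 70656727 to 70783515), measured 9.82, 9.50 and 10.6 FPKM and was the steadiest laminin gene, its highest value being 1.12 times its lowest. Lamb1 (chromosome 6, 50528823 to 50596079), the beta chain of early and of vascular laminins, measured 10.9, 7.80 and 7.29 FPKM. Lamb2 (chromosome 8, 117268337 to 117280517), the beta chain of synaptic and mature basement membranes, measured 8.11, 10.2 and 17.3 FPKM. The order of the animals was thus opposite for the beta chains, and the ratio of Lamb2 to Lamb1 was 0.744, 1.304 and 2.37.

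Set against Lamc1 within the animal, neither Lamb1 (log2 ratio -0.22, interval from -0.63 to 0.19, adjusted p = 0.235) nor Lamb2 (0.17, from -0.34 to 0.69, 0.437) passed the limma test. The other 8 chains were lower than Lamc1, where 58.2% of all genes passed as lower and 30.9% as higher. The nearest was Lama4 (-1.44, SE 0.18, adjusted p = 0.000660), and the farthest were Lamb3 (-4.10, SE 0.27, 7.02e-05) and Lama1 (-4.13, SE 0.25, 5.12e-05). All 8 calls were kept without any 1 animal. With each ratio's own variance only, Lama2 (0.109) and Lama3 (0.123) were not.

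**Figure D3:**
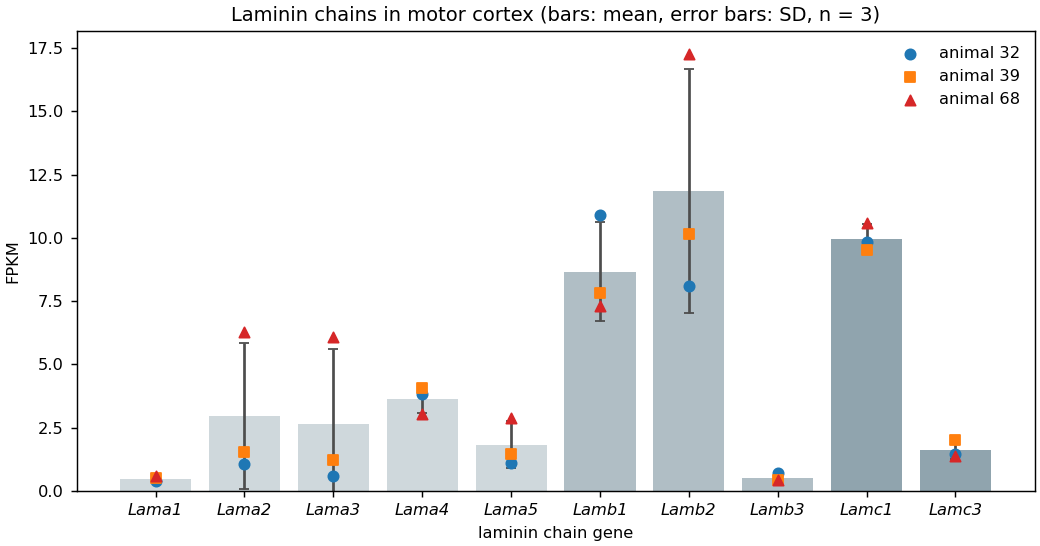
Levels of 10 laminin chain genes in FPKM; bars are means, error bars the SD over 3 animals (drawn down to 0 at most) and symbols the animals. Lamc1 has close symbols, Lamb1 is highest in animal 32, and Lama2, Lama3 and Lamb2 are highest in animal 68.

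Laminin alpha chains gave the widest spread. Lama4, the alpha chain of endothelial basement membranes, measured 3.81, 4.08 and 3.02 FPKM and was the only alpha chain gene to pass above 1 FPKM with all 3 animals (limma, adjusted p = 0.000246). Fam229b, at 2.88, 2.41 and 3.20 FPKM, shares 2137 bases with the Lama4 locus on the opposite strand. Lama5, the other endothelial alpha chain, measured 1.12, 1.46 and 2.90 FPKM and did not pass (adjusted p = 0.0850) except without animal 32 (0.0294). Lama2, the alpha chain that binds dystroglycan and is mutated in a congenital muscular dystrophy, measured 1.06, 1.51 and 6.28 FPKM. Lama3, an epithelial alpha chain, measured 0.595, 1.21 and 6.07 FPKM. Animal 68 was several times above both others for Lama2 and Lama3, and neither passed against 1 FPKM with all animals (adjusted p = 0.111 and 0.345), although both did without animal 32 (0.0203 and 0.0449). Lama1, the chain of embryonic and pial basement membranes, was lowest at 0.371, 0.489 and 0.578 FPKM.

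Lamb3, an epithelial beta chain that pairs with Lama3, measured 0.686, 0.406 and 0.410 FPKM. It was highest in animal 32, the animal where Lama3 was lowest. Lamc3, a gamma chain reported in brain and retina, measured 1.44, 1.99 and 1.38 FPKM and passed above 1 FPKM (0.0386), a call not kept without animal 32 (0.0737) or animal 39 (0.273).

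The make-up of the alpha and beta chain pools therefore differed between animals. Lama4 made up 54.8 and 46.6% of the summed alpha chain level in animals 32 and 39 and 16.0% in animal 68, where Lama2 (33.3%) and Lama3 (32.2%) were the largest shares. Lama5 held 16.0, 16.7 and 15.4%. Lamb1 made up 55.3, 42.4 and 29.2% of the beta pool. Alpha chains summed to 6.96, 8.76 and 18.8 FPKM and beta chains to 19.7, 18.4 and 24.99 FPKM. Each share rests on 1 library per animal and has no replicate within the animal.

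**Figure D4:**
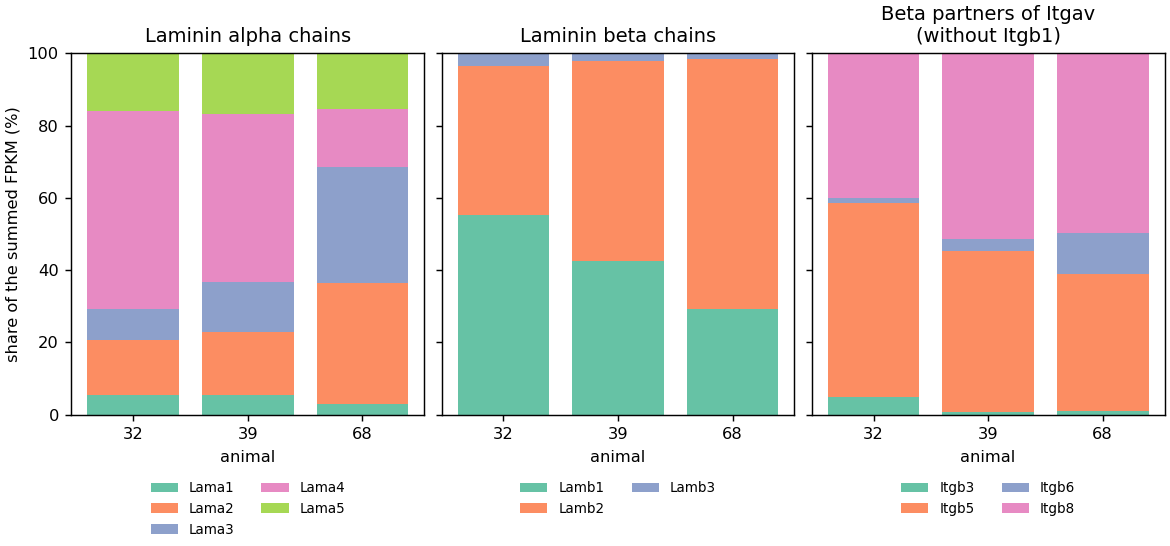
Share of each gene in the summed FPKM of its pool, in percent, by animal, for laminin alpha and beta chains and for the beta partners of Itgav without Itgb1. The share of Lama4 is 54.8% in animal 32 and 16.0% in animal 68, and Lamb1 and Lamb2 change places between animal 32 and the others.

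The order of the animals was shared by many members. In 24 of 37 members the level was lowest in animal 32 and highest in animal 68, an order that 29.7% of all 18929 genes showed, and 25 of 37 were highest in animal 68, as were 45.2% of all genes. The reverse order was found in 3 of 37, Itgav and Lamb1 among them (18.0% of all genes). The order was shown by 18 of 25 integrin subunits and 5 of 11 laminin chains. On the FPKM + 0.1 scale, 17 of 37 members were more than 2-fold higher in animal 68 than in animal 32, where 13.5% of all genes were, and 1 of 37 was more than 2-fold lower, where 5.46% were. The median log2 difference was 0.92 over the members and 0.08 over all genes. Itga7 lay just inside the 2-fold bound (log2 difference 1.01), and Itga2b (0.98) and Itgb1 (0.92) just outside. Each comparison sets 1 library against another, so it has no test.

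Comparisons without animal 68 gave smaller differences. Between animals 39 and 32, 3 of 37 members were more than 2-fold higher in animal 39 (Itga1, Itgb6 and Itgbl1; 5.93% of all genes) and 1 was more than 2-fold lower (Itgb3; 3.39%). Without regard to size, 30 of 37 members were higher in animal 39 than in animal 32, against 56.2% of all genes, with a median log2 difference of 0.36 over the members and 0.05 over all genes. Between animals 68 and 39, 10 of 37 were more than 2-fold higher (7.95% of all genes) and 0 of 37 more than 2-fold lower (4.82%). These comparisons share animals, so their counts are not independent.

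**Figure D5:**
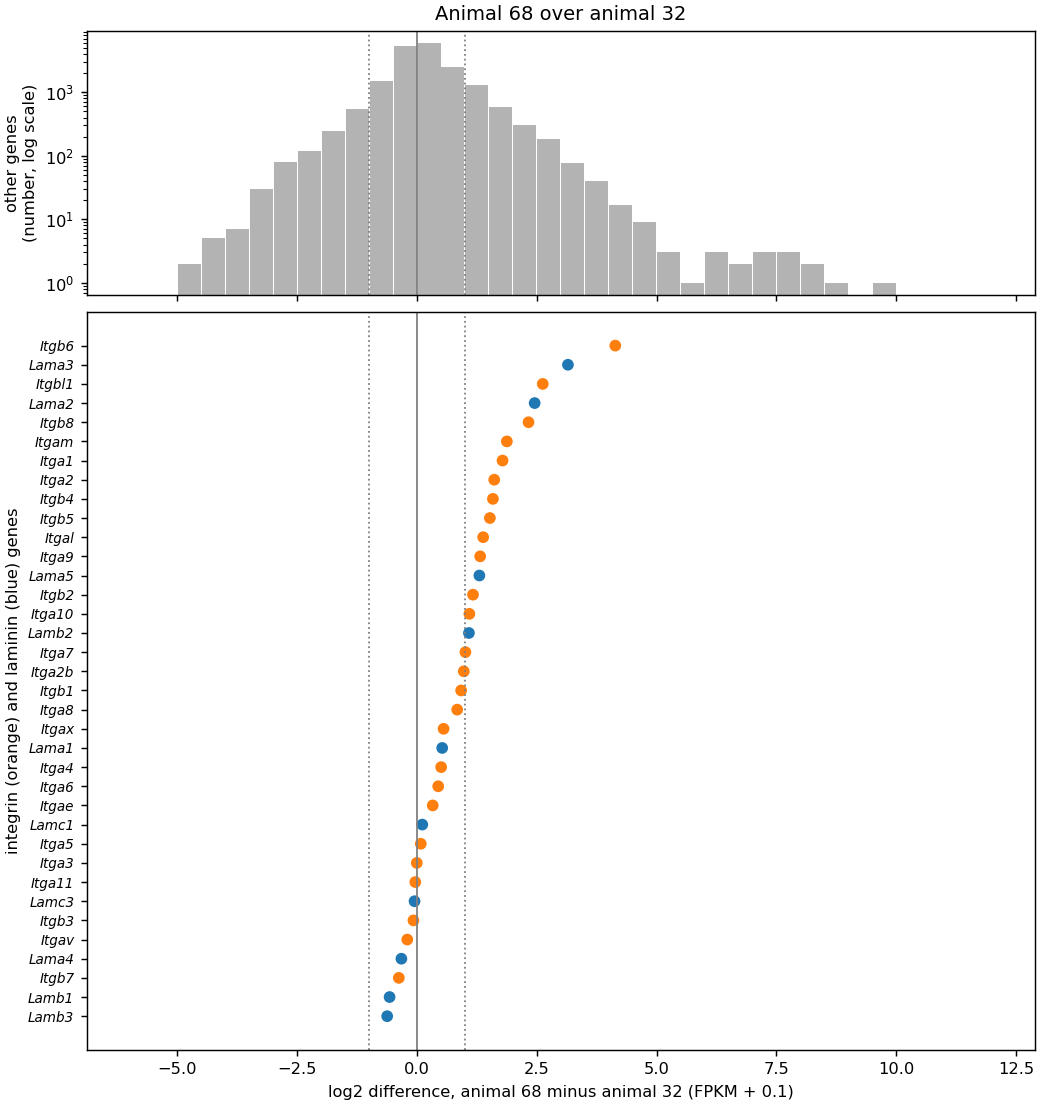
Log2 difference of (FPKM + 0.1) between animal 68 and animal 32: above, the number of other genes per bin of 0.5 on a log axis, and below, 36 of the members, with integrin genes and Itgbl1 in orange and laminin genes in blue; dotted lines mark 2-fold. Itgb6 is farthest to the right.

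Several marker lists had the same order of animals as most members, gene by gene. It was shown by 11 of 11 choroid plexus markers, led by Ttr (8.36, 615 and 7264 FPKM), by 12 of 12 oligodendrocyte, 12 of 12 microglial and 9 of 9 oligodendrocyte precursor markers (sums of 155, 218 and 341 FPKM for the last) and by 8 of 11 ependymal markers (23.4, 33.4 and 71.4 FPKM). Astrocyte markers summed to 1440, 1533 and 2524 FPKM and were all highest in animal 68, as were 10 of 12 striatal neuron markers (sums of 189, 168 and 328 FPKM). The reverse order was shown by 10 of 12 pan-neuronal markers. Vascular and meningeal lists had no common order. Of 11 endothelial markers 4 had the reverse order and 1 the members' order, with medians of 6.71, 6.62 and 6.72 FPKM and sums of 149, 139 and 127 FPKM, and mural cell markers summed to 116, 149 and 126 FPKM over 12 genes. Meningeal fibroblast markers summed to 94.8, 99.6 and 167 FPKM over 12 genes, of which Col1a2 and Ogn were listed at 0 in all libraries. Of these 12 genes 4 had the members' order and 1 the reverse. Highest in animal 68 were 6 of them, Igf2 (11.3, 17.1 and 65.2 FPKM) and Fmod (6.03, 5.27 and 24.3 FPKM) included. Col6a1, at 38.7, 29.4 and 17.1 FPKM, was lowest in animal 68. The part of these lists in the members' differences was not tested.

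The intracellular partners of integrins were broadly expressed. Of 28 genes of the integrin adhesion complex, 26 passed above 1 FPKM in the limma test, 1 below it (Fermt1, the epithelial kindlin) and 1 did not pass, where 64.4% of all genes passed above and 23.2% below. The list's median log2 difference from 1 FPKM was 3.79, beside 2.22 for all genes tested and 0.61 for the 37 integrin and laminin genes, and the lists were not tested against each other. Levels overlapped, with Itgb1 at 26.0 FPKM above Tln1 at 9.83 FPKM. Highest were Ptk2b, a focal adhesion kinase relative enriched in forebrain neurons (143, 172 and 197 FPKM), the integrin-linked kinase Ilk (50.7, 52.4 and 58.5), the actin crosslinker Actn4 (56.0, 55.1 and 45.3) and the kinase Src (49.6, 46.9 and 40.8). Among the adaptors that bind integrin beta tails, Fermt2 measured 22.2, 23.4 and 34.5 FPKM, Tln2 10.8, 12.2 and 11.4 FPKM and Tln1 6.59, 9.12 and 13.8 FPKM.

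Basement membrane partners of laminins ranged widely in level. Of 26 genes found, 25 were above 0 in some library and were tested, of which 21 passed above 1 FPKM, 2 below it and 2 not at all (median log2 difference 2.60), beside the same 64.4% and 23.2% of all genes. Sparc, a collagen-binding matrix protein, was highest at 127, 163 and 279 FPKM, followed by the laminin receptor dystroglycan Dag1 (28.2, 28.3 and 39.0), Sgcb (26.5, 28.3 and 36.8) and Pomgnt1, an enzyme that glycosylates dystroglycan (28.8, 30.9 and 31.7). The collagen chains Col4a1 and Col4a2 measured 12.2 ± 1.80 and 18.8 ± 2.34 FPKM, Nid1, which links laminin to collagen, 5.16 ± 2.19 and the proteoglycan Agrn 28.1 ± 6.03 (SD, n = 3). Col15a1 was listed at 0 in all libraries.

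Among 30 integrin ligands other than laminins, 29 were tested, and 18 passed above 1 FPKM, 6 below it and 5 not at all (median log2 difference 1.24), shares near the 64.4% and 23.2% of all genes. Icam5, a neuronal ligand of the Itgal and Itgb2 receptor, was highest at 85.6, 98.6 and 92.8 FPKM, while Itgal stayed below 1 FPKM in every animal. Edil3 (49.2, 48.4 and 66.6 FPKM) and Mfge8 (34.1, 31.0 and 57.6 FPKM), secreted ligands of Itgav receptors, and the integrin-associated protein Cd47 (39.0, 37.3 and 36.2 FPKM) followed. Of the TGF-beta genes, whose latent Tgfb1 and Tgfb3 products Itgb8 and Itgb6 receptors bind, Tgfb1 measured 3.44, 4.29 and 4.21 FPKM, Tgfb2 5.50, 6.52 and 12.7 FPKM and Tgfb3 2.81, 3.65 and 5.60 FPKM, and Nrros, which holds Tgfb1 on microglia, 1.71, 2.56 and 3.53 FPKM. Fibronectin (Fn1) measured 6.63 ± 1.17 FPKM and Vtn 11.4 ± 2.75 FPKM. The fibrinogen chain Fgb was listed at 0 in all libraries.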

How the data were processed

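The authors deposited 1 table per animal, whose FPKM values they computed by Perl script out of normalized fragment numbers, per the series' design text. Per the submitters' processing notes the tools include HISAT2 2.0.4 and StringTie 1.3.0 and the build is Rnor 6.0, with no role stated. Whether counting used strand, and the release of the gene models, is not given in the sources used. Depth was inferred from genes with loci of up to 400 bases, where 85.0, 86.6 and 82.0% of values lay within 0.02 fragments of a whole number.

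Values were analysed as log2(FPKM + 0.1), which understates changes of low genes. Levels against 1 FPKM and ratios to Itgb1, Itgav, Itgb2 and Lamc1 within the animal were fitted over all genes above 0 in at least 1 library (18929; limma 3.58.1 in R 4.3.3, prior with trend, Benjamini-Hochberg adjustment). The level test alone was also run on simulated independent genes, without the trend. The ratio fits were not simulated. With 3 animals the smallest p of an exact sign-flip test is 0.25. Alternatives changed the pseudocount, the filter, the scaling, the trend and the animals; own variances, and variances of gene and reference moderated apart, were chosen after seeing the data. The members, lists and reference genes were chosen with earlier results of these data known. All 3 values are printed for members with a mean of at least 1 FPKM, for all laminin chains, for leukocyte and Itgav partner genes of at least 0.5 FPKM and for members over 2-fold between animals; up to 4 genes are named per list by mean. Other list genes (Fermt1, Fermt2, Tln1, Tln2, Col4a1, Col4a2, Col6a1, Nid1, Agrn, Tgfb1, Tgfb2, Tgfb3, Nrros, Fn1, Vtn, Igf2, Fmod and those listed at 0) were chosen after their values were seen. Values of 1 member are not reported here. Python 3.11.15 with pandas 2.3.3 was used for the rest. Upstream sequences are from RefSeq on GRCr8, whose coordinates are not those of Rnor 6.0.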

Additional observations from a re-analysis of the deposited data

How the results depend on the processing

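No comparison between groups was possible because all 3 animals form 1 group, and pairing entered only as ratios of genes within the animal. Of 67 results for single members, direction and call were kept in 67 under both other scalings, in 64 with a pseudocount of 1, in 66 with 0.01, in 63 without the trend and in all 46 still tested with a mean of at least 1 FPKM. Direction and call were kept in 53, 53 and 55 of the 67 without animals 32, 39 and 68 in turn. With own variances only, they were kept in 50. With a mean of at least 1 FPKM as a filter, 0 genes and 0 members passed below 1 FPKM, which the filter removes, 8528, 7072, 71 and 5478 genes passed as lower than Itgb1, Itgav, Itgb2 and Lamc1, and 1 member as lower than Itgb2. Without the trend, 0 of the members passed as higher than Itgav. With all animals and the settings of the report, 10 members passed below 1 FPKM, 1879 genes as higher than Itgb1, and 14119, 12655, 5629 and 11008 genes as lower than Itgb1, Itgav, Itgb2 and Lamc1. With own variances only, 5 members passed below 1 FPKM, 1003 genes passed as higher than Itgb1, 0 members as higher and 1 as lower than Itgav, and 3522 genes as lower than Itgb2. With 1 animal left out, 12 to 17 members passed above and 4 to 9 below 1 FPKM (4 without animal 39, 6 without animal 32), and 716 to 2716 genes as higher than Itgb1 (716 without animal 39, 1183 without animal 32). Fits on a pair of animals have 1 residual degree of freedom. For single members, 10 calls were lost with own variances in the test against 1 FPKM. The sign changed only in fits where the call was not passed: against 1 FPKM, Itga1 turned to 0.0465 with a pseudocount of 1. With 1 animal left out, log2 differences from 1 FPKM ran from -0.39 to 0.50 for Itga1, -0.18 to 0.0698 for Itga4, -0.0732 to 0.59 for Itga9, -0.65 to 0.29 for Itgam, -0.16 to 0.63 for Itgb4, -1.72 to 0.35 for Itgb6 and -0.20 to 1.37 for Lama3, and the log2 ratio of Lamb2 to Lamc1 from -0.0879 to 0.40. The cause of these changes was not tested, apart from the filter. Low members rest on few fragments per kilobase, which limits Itga2, Itgax, Itgb7 and Itga10 most.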
